A study of Rattus norvegicus with 12 samples.

Results

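The genes described here encode Toll-like receptors, the RIG-I-like receptors and the proteins that carry their signals, measured by RNA sequencing of rat kidney. They were chosen by symbol from a list of 10, Tlr2, Tlr3, Tlr4, Cd14, Myd88, Ticam1, Ifih1, Dhx58, Mavs and Ddx58. A row with the symbol was found for 8 of the 10 among 30208 genes, and all 8 passed the filter on low counts, as did 14664 genes in all. Ticam1 and Ddx58 were not analysed here under those symbols. RIG-I itself stands in the table as Rig1, for which RefSeq gives Ddx58 as an older symbol. Rig1 is described beside the 8 genes, is not counted among them, and was added after its values were seen.

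The kidneys came from 3 groups of 4 libraries. The CPB+Nitrite group had cardiopulmonary bypass, in which blood is routed through a heart-lung machine, together with nitrite, a salt that tissues can reduce to nitric oxide. The CPB group had bypass alone, and the sham group served as the control of both. The title of the series places the study in kidney injury after cardiac surgery. The labels state no strain, age, sex, dose, route, length of bypass or time of sampling. They do not say that libraries of a group came from separate animals. The p-values therefore weigh group differences against the spread between libraries, which may not be a spread between animals.

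Toll-like receptors recognise microbial molecules and products of damaged cells at the cell surface or in endosomes, and most of them signal through the adaptor Myd88 to NF-kappaB. RIG-I-like receptors are cytosolic helicases that bind viral or misplaced double-stranded RNA and signal through the mitochondrial protein Mavs to interferon regulatory factors (IRFs). In kidney both families are present in resident and infiltrating leukocytes, endothelium and tubule cells, and many of their genes are themselves induced by interferon.

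The promoters of 3 of the genes are shown because these genes differed between groups and their promoters hold letters of elements bound by factors of these pathways. RefSeq sequences of 250 bases before to 50 after the start site (build GRCr8) were found for 7 of the 9 genes, without Dhx58 and Rig1. Each is printed 5′ to 3′ on the strand of the gene, and capitals mark the matches. The Ifih1 promoter lies at chr3:67683919-67684218, that of Myd88 at chr8:127956181-127956480 and that of Tlr2 at chr2:171504508-171504807, all on the minus strand.
Ifih1: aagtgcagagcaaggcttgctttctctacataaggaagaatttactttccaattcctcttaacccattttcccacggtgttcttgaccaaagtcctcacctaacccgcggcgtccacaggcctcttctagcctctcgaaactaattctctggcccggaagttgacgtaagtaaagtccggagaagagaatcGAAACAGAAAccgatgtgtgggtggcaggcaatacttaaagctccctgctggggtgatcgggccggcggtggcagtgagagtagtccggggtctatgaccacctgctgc
Myd88: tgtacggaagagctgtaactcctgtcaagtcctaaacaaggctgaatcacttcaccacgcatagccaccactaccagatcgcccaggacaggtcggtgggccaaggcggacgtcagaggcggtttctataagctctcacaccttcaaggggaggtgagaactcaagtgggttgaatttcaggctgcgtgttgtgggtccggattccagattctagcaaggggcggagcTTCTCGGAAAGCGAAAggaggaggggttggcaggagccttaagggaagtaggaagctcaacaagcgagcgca
Tlr2: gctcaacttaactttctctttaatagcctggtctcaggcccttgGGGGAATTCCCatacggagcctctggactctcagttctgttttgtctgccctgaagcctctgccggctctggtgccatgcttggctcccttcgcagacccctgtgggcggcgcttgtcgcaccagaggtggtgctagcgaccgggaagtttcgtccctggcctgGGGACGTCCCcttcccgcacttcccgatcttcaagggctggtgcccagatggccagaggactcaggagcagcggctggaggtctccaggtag
Both strands were searched for an IRF element (GAAA, then 2 bases of any kind, then GAAA), a GAS element bound by STAT proteins (TTCNNNGAA) and the NF-kappaB consensus. The IRF element was found in Ifih1 as GAAACAGAAA, 59 to 50 bases before the start site, and in Myd88 as GAAAGCGAAA, 16 to 7 bases before it. Of 33469 rat promoters of the same length, 3.92% held this element. Myd88 also held the GAS letters TTCTCGGAA 22 to 14 bases before the start, overlapping its IRF match, and 8.87% of all promoters held a GAS match. Tlr2 held NF-kappaB letters in a pair of places, GGGAATTCCC at 205 to 196 bases before the start (with an overlapping match a base further upstream) and GGGACGTCCC at 42 to 33 bases. NF-kappaB letters were found in 7.51% of all promoters. The windows of Tlr3, Tlr4, Cd14 and Mavs held no match to any of the 3 patterns. A match describes letters only and was not tied to binding in these samples.

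The 12 libraries held 16.8 to 25.8 M estimated reads (M, mega). Levels are given in CPM, the reads of a gene per M reads of its library after scaling. They do not account for transcript length and so are compared between groups and not between genes. Markers of proximal tubule were abundant in every library, with summed levels of 8433 to 12167 CPM in CPB+Nitrite, 9454 to 11008 CPM in CPB and 12788 to 14709 CPM in sham. The library CPB+Nitrite 2 stood apart from the other CPB+Nitrite libraries. Its endothelial markers summed to 2952 CPM, its loop and distal tubule markers to 776 CPM and its erythrocyte markers to 8143 CPM. Its collecting duct markers summed to 4376.5 CPM and its podocyte markers to 1053 CPM. The other 3 CPB+Nitrite libraries had 407 to 647 CPM of endothelial, 5144 to 9144 CPM of loop and distal tubule and 485 to 641 CPM of erythrocyte markers. They had 1632 to 1941 CPM of collecting duct and 414 to 610 CPM of podocyte markers.

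In CPB kidneys, 6 of the 8 genes rose relative to sham (Tlr2, Tlr4, Cd14, Myd88, Ifih1 and Dhx58), Mavs fell and Tlr3 did not pass the test. Called means an adjusted p of at most 0.05 in the quasi-likelihood F test of edgeR, adjusted by Benjamini-Hochberg over all 14664 genes. The cytosolic RNA sensors had the largest differences, 8.36-fold for Ifih1 and 11.6-fold for Dhx58, against at most 3.92-fold for the other 4 that rose. The share called, 87.5%, stands beside 43.2% of all genes tested. By direction, 21.7% of all genes were called higher and 21.5% lower. The median log2 difference was 1.31 over the 8 genes and -0.05 over all genes. All 6 genes that rose were higher in every CPB library than in any sham library, an arrangement found for 23.5% of all genes. Mavs was lower in every CPB library than in any sham library, as 24.8% of all genes were, so that 7 of the 8 genes did not overlap between groups, beside 48.2% of all genes. The same 7 had an unadjusted p under 0.05, beside 52.6% of all genes.

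**Figure D1:**
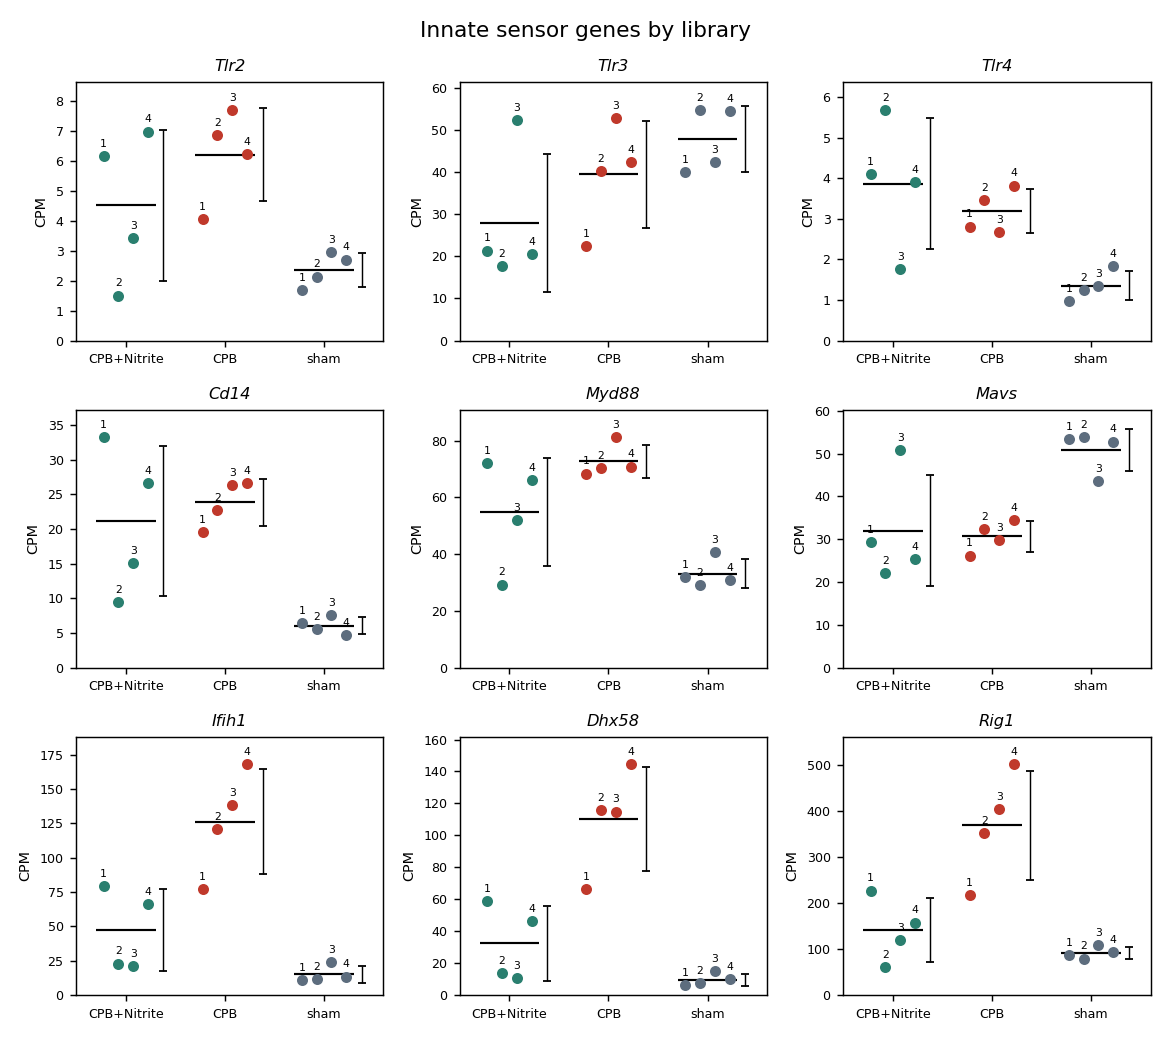
Level of each gene in each library, in CPM, with CPB+Nitrite left, CPB in the middle and sham right. Horizontal lines are group means, error bars the mean ± SD over 4 libraries and numbers the replicates. Ifih1 ran from 20.8 to 79.2 CPM in CPB+Nitrite, from 76.7 to 168 CPM in CPB and from 11.0 to 24.1 CPM in sham.

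The surface receptors were Tlr2, which recognises bacterial lipoproteins, and Tlr4, which recognises lipopolysaccharide. Tlr2 (chromosome 2, 169197419 to 169206630, minus strand, build mRatBN7.2) had 6.17, 1.502, 3.43 and 6.98 CPM in CPB+Nitrite 1 to 4, 4.07, 6.85, 7.70 and 6.23 CPM in CPB, and 1.68, 2.13, 2.94 and 2.71 CPM in sham. CPB+Nitrite 2 was below every other library, and CPB+Nitrite 1 and 4 lay inside the CPB range. In CPB kidneys Tlr2 averaged 6.21 ± 1.55 CPM, against 2.36 ± 0.572 CPM in sham (SD, n = 4 each), a log2 difference of 1.39 (SE 0.41, edgeR adjusted p = 0.0178). Without sham 1 the adjusted p was 0.0514 at a log2 difference of 1.26.

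Tlr4 (chromosome 5, 80145826 to 80159628, plus strand) was the least counted of the genes, with 36 to 155 reads in CPB+Nitrite libraries, 47 to 71 in CPB and 26 to 38 in sham. It had 4.10, 5.68, 1.76 and 3.91 CPM in CPB+Nitrite, 2.80, 3.45, 2.66 and 3.82 CPM in CPB, and 0.968, 1.25, 1.35 and 1.84 CPM in sham. CPB+Nitrite 1, 2 and 4 were above every CPB library, while CPB+Nitrite 3 lay inside the sham range. Tlr4 averaged 3.18 ± 0.545 CPM in CPB and 1.35 ± 0.362 CPM in sham (SD, n = 4 each). The log2 difference of CPB from sham was 1.24 (SE 0.35, edgeR adjusted p = 0.0141). The highest Tlr4 level was in CPB+Nitrite 2, the library with the highest endothelial marker sum, and the part of that in the Tlr4 level was not tested.

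Cd14 (chromosome 18, 28335340 to 28337261, minus strand), a co-receptor that hands lipopolysaccharide to Tlr4, had 33.3, 9.42, 15.1 and 26.7 CPM in CPB+Nitrite, 19.5, 22.8, 26.4 and 26.7 CPM in CPB, and 6.48, 5.51, 7.61 and 4.69 CPM in sham. Every CPB+Nitrite and every CPB library was above every sham library. Cd14 averaged 23.8 ± 3.38 CPM in CPB and 6.07 ± 1.26 CPM in sham (SD, n = 4 each), a log2 difference of 1.97 (SE 0.33, edgeR adjusted p = 0.00152). Cd14 kept its call for CPB versus sham in all 21 alternative settings tried.

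Tlr3, the endosomal receptor of double-stranded RNA (chromosome 16, 46822039 to 46836545, plus strand), had 21.4, 17.7, 52.4 and 20.5 CPM in CPB+Nitrite, 22.4, 40.2, 53.0 and 42.4 CPM in CPB, and 40.1, 54.8, 42.4 and 54.6 CPM in sham. The low libraries were CPB+Nitrite 1, 2 and 4 and CPB 1, and the remaining CPB libraries overlapped sham. The log2 difference of CPB from sham was -0.28 with a 95% interval of -1.04 to 0.48 (edgeR adjusted p = 0.511). This interval includes both lower and higher levels in CPB.

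Myd88 (chromosome 8, 119074437 to 119079415, minus strand), the adaptor shared by most Toll-like receptors and by the interleukin-1 receptor family, had the smallest SD relative to its mean within CPB among the 6 genes that rose. It had 72.1, 29.2, 52.1 and 66.1 CPM in CPB+Nitrite, 68.4, 70.4, 81.2 and 70.9 CPM in CPB, and 31.9, 29.2, 40.7 and 30.9 CPM in sham. CPB+Nitrite 2 lay at the sham level, CPB+Nitrite 1 inside the CPB range, and the other two between the groups. The mean was 72.7 ± 5.77 CPM in CPB and 33.2 ± 5.14 CPM in sham (SD, n = 4 each), a log2 difference of 1.13 (SE 0.23, edgeR adjusted p = 0.00319).

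Ifih1 encodes MDA5, which binds long double-stranded RNA (chromosome 3, 47227364 to 47275456, minus strand). Its levels were 79.2, 22.8, 20.8 and 66.3 CPM in CPB+Nitrite, 76.7, 121, 138 and 168 CPM in CPB, and 11.0, 11.7, 24.1 and 13.3 CPM in sham. The CPB+Nitrite libraries fell into a high pair, 1 and 4, and a low pair, 2 and 3, of which the low pair lay inside the sham range. Ifih1 averaged 126 ± 38.1 CPM in CPB and 15.1 ± 6.13 CPM in sham (SD, n = 4 each), a log2 difference of 3.06 (SE 0.46, edgeR adjusted p = 0.00107).

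Dhx58 encodes LGP2, a relative of MDA5 and RIG-I that lacks their signalling domains and modulates their activity (chromosome 10, 85620357 to 85631525, minus strand). It had 58.6, 13.7, 10.7 and 46.0 CPM in CPB+Nitrite, 66.3, 116, 115 and 144 CPM in CPB, and 6.33, 7.44, 14.7 and 9.67 CPM in sham. CPB+Nitrite 2 and 3 again lay inside the sham range, and CPB+Nitrite 1 and 4 between the groups. Dhx58 averaged 110 ± 32.4 CPM in CPB and 9.54 ± 3.72 CPM in sham (SD, n = 4 each), a log2 difference of 3.53 (SE 0.53, edgeR adjusted p = 0.00107).

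Rig1, the sensor of short and uncapped RNA ends (chromosome 5, 55321235 to 55370819, minus strand), had 227, 59.8, 119 and 157 CPM in CPB+Nitrite, 218, 351, 405 and 502 CPM in CPB, and 86.2, 78.9, 109 and 92.2 CPM in sham. CPB+Nitrite 2 was below every sham library and CPB+Nitrite 1 inside the CPB range. The log2 difference of CPB from sham was 2.01 (SE 0.35, edgeR adjusted p = 0.00168).

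Mavs, the adaptor of MDA5 and RIG-I on mitochondria (chromosome 3, 118451743 to 118466094, plus strand), went the other way from its receptors. It had 29.4, 22.1, 50.9 and 25.4 CPM in CPB+Nitrite, 26.2, 32.4, 29.8 and 34.4 CPM in CPB, and 53.3, 53.8, 43.5 and 52.8 CPM in sham. Every CPB library was below every sham library, and CPB+Nitrite 3 alone among the bypass libraries lay inside the sham range. Mavs averaged 30.7 ± 3.57 CPM in CPB and 50.9 ± 4.92 CPM in sham (SD, n = 4 each), a log2 difference of -0.73 (SE 0.23, edgeR adjusted p = 0.0212). Its adjusted p was 0.0516 without sham 2, 0.0529 without CPB 1 and 0.0517 without CPB 3.

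Within CPB, library 1 was the lowest for each of the 8 genes except Tlr4. In whole tissue, fewer cells of a type and less RNA per cell cannot be told apart. The 14 neutrophil markers summed to 38.7 to 62.0 CPM in CPB and 7.30 to 18.4 CPM in sham. Of the 11 tested, 5 were called higher (all genes, 21.7%) and 1 lower (all genes, 21.5%), beside 43.2% called in either direction. The list included Lcn2, and which cells gave the reads of these markers was not tested. Neutrophil markers summed to 28.7 to 53.4 CPM in CPB+Nitrite, where Elane was at 0 in all 4 libraries, as in sham. The 19 macrophage and monocyte markers summed to 186 to 277 CPM in CPB+Nitrite, 116 to 175 CPM in CPB and 133 to 304 CPM in sham. Of the 15 tested, 1 was called higher (all genes, 21.7%) and 4 lower (all genes, 21.5%) in CPB than in sham. Clec4f was at 0 in all CPB and sham libraries. Endothelial markers, 14 tested, summed to 407 to 2952 CPM in CPB+Nitrite, 323 to 484 CPM in CPB and 323 to 587 CPM in sham, with 3 called higher and 3 lower in CPB than in sham, a share near the 43.2% of all genes. The part of these cells in the levels of Tlr2, Tlr4, Cd14 and the other genes was not tested.

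**Figure D2:**
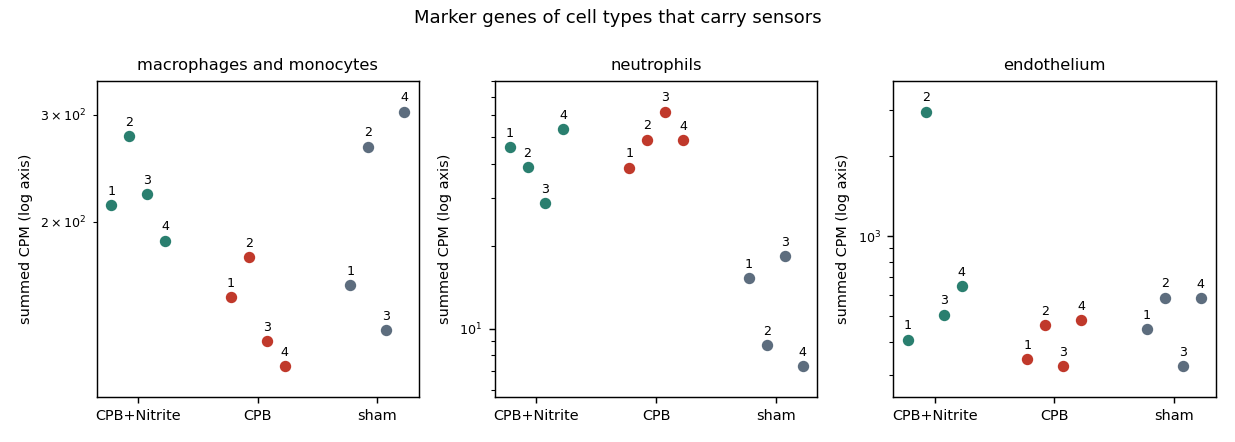
Summed level in CPM (log axes) of markers of macrophages and monocytes, neutrophils and endothelium in each library, with CPB+Nitrite left, CPB in the middle and sham right. Numbers are replicates. Neutrophil sums of the CPB libraries (38.7 to 62.0 CPM) lay above those of sham (7.30 to 18.4 CPM), and CPB+Nitrite 2 had the highest endothelial sum, 2952 CPM.

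The split of all calls depended on scaling. In CPB versus sham, 50.3% of called genes were higher with the scaling used here and 34.8% with total counts alone, which moved the median log2 difference of all genes to -0.24, against -0.05. The 8 genes kept their directions under every scaling tried, with 6 called higher and 1 lower.

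The next comparison asked how the levels with nitrite differed from bypass alone. None of the 8 genes was called in CPB+Nitrite versus CPB, as none of all 14664 was (0%) by edgeR's quasi-likelihood test. At an unadjusted p under 0.05 the test had 4315 genes (29.4%), 2 of them among the 8. DESeq2 called 2215 of the 15604 genes it tested and limma voom 1 of 14664. The log2 difference was negative in 6 of the 8 genes, with a median of -0.43, against 0.053 over all genes. Only Dhx58 among the 8 was lower in every CPB+Nitrite library than in any CPB library, an arrangement in that direction found for 6.27% of all genes. None of the 8 was higher in every CPB+Nitrite library, as 6.44% of all genes were, and 12.7% of all genes did not overlap in either direction.

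The 2 genes with an unadjusted p under 0.05 were the cytosolic RNA sensors. Dhx58 averaged 32.2 ± 23.7 CPM in CPB+Nitrite and 110 ± 32.4 CPM in CPB (SD, n = 4 each), a log2 difference of -1.77 (95% interval -2.89 to -0.66, edgeR adjusted p = 0.0628). Ifih1 averaged 47.3 ± 29.9 CPM in CPB+Nitrite and 126 ± 38.1 CPM in CPB, a log2 difference of -1.41 (95% interval -2.39 to -0.44, edgeR adjusted p = 0.0729). The smallest adjusted p of any gene in this comparison was 0.0556. Rig1 had a log2 difference of -1.39 (edgeR adjusted p = 0.0576). DESeq2 called Ifih1, Dhx58 and Rig1 lower. So did edgeR without CPB+Nitrite 1, their highest CPB+Nitrite library, in a fit that called 2816 of all genes. In 19 of 21 alternative settings each of them stayed uncalled.

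Both sensors were high in CPB+Nitrite 1 and 4 and low in CPB+Nitrite 2 and 3. The remaining genes gave intervals that include no difference. The log2 difference was -0.46 (-1.37 to 0.46) for Tlr2, -0.50 (-1.26 to 0.27) for Tlr3 and -0.41 (-0.92 to 0.11) for Myd88. It was 0.28 (-0.48 to 1.05) for Tlr4, -0.17 (-0.90 to 0.55) for Cd14 and 0.058 (-0.45 to 0.57) for Mavs. Their adjusted p-values ran from 0.243 for Myd88 to 0.881 for Mavs.

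**Figure D3:**
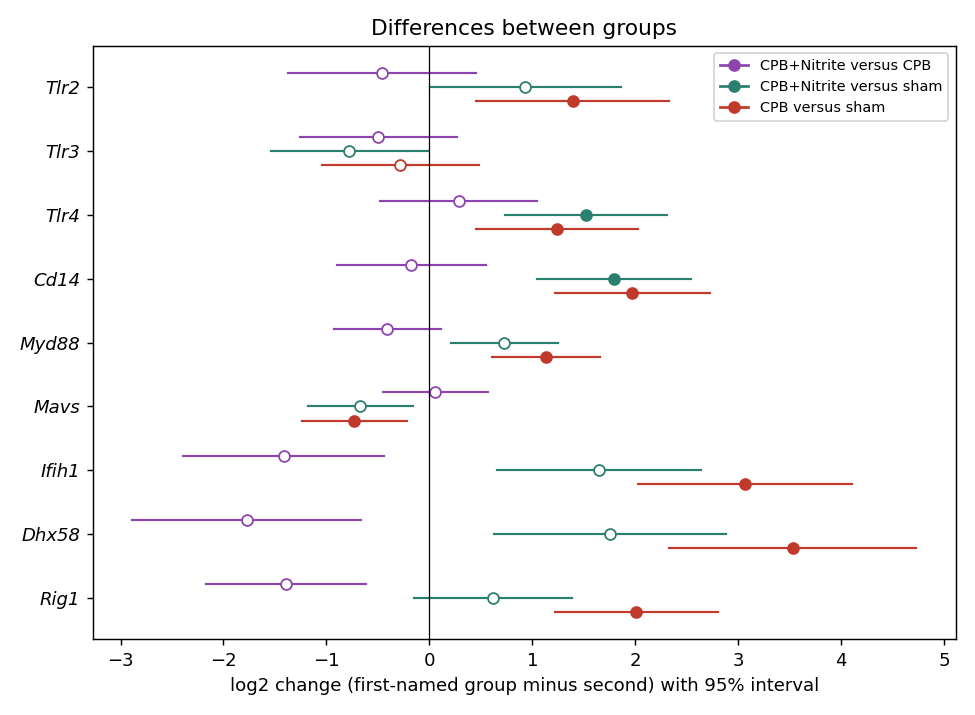
Log2 difference of each gene in CPB+Nitrite versus CPB, CPB+Nitrite versus sham and CPB versus sham, first-named group minus the second, with 95% intervals. Filled points passed the adjusted threshold of 0.05. Dhx58 stood at -1.77, 1.76 and 3.53.

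Against sham, Tlr4 and Cd14 were called higher in CPB+Nitrite kidneys, 2 of the 8 genes (25%), beside 4.81% of all genes (3.85% higher). By edgeR none of the 8 was called lower, beside 0.955% of all genes. This comparison shares its sham libraries with CPB versus sham. Cd14 averaged 21.1 ± 10.8 CPM in CPB+Nitrite and 6.07 ± 1.26 CPM in sham (SD, n = 4 each), a log2 difference of 1.80 (SE 0.33, edgeR adjusted p = 0.0273). Tlr4 averaged 3.86 ± 1.61 CPM in CPB+Nitrite and 1.35 ± 0.362 CPM in sham, a log2 difference of 1.52 (SE 0.35, edgeR adjusted p = 0.0402). Cd14 was the only one of the 8 whose groups did not overlap, which 5.64% of all genes showed in that direction, 5.87% in the other and 11.5% in either.

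The other 6 genes missed the adjusted threshold. Ifih1 had a log2 difference of 1.65 (SE 0.44, edgeR adjusted p = 0.0501) and Dhx58 of 1.76 (SE 0.50, adjusted p = 0.0574). Myd88 had 0.73 (adjusted p = 0.0746), Tlr2 0.93 (adjusted p = 0.164), Mavs -0.67 (adjusted p = 0.0878) and Tlr3 -0.78 (adjusted p = 0.159), all from edgeR. All 8 had an unadjusted p under 0.05, as had 27.4% of all genes, and the median log2 difference was 1.23 over the 8 and 0.037 over all genes. Rig1 had a log2 difference of 0.62 (edgeR adjusted p = 0.253).

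The count of called genes in this comparison depended on the tool and on single libraries. DESeq2 called 5 of the 8, all higher, beside 2108 of the 15604 genes it tested. Limma voom called all 8, beside 2870 of 14664 genes, with Tlr3 (-1.01) and Mavs (-0.77) lower on the log2 scale. When only the 2 groups were fitted, 0 of the 8 and 0 of all genes were called. The count was 0 without sham 1, 2 or 4 or CPB+Nitrite 4, where 2, 0, 1 and 0 of all genes were called. It was also 0 without CPB+Nitrite 1, beside 84 of all genes. It was 1 without any single CPB library, beside 154 to 294 of all genes. It was 6 without CPB+Nitrite 2 or CPB+Nitrite 3, beside 1804 and 2980 of all genes. Without CPB+Nitrite 2 all 6 were higher, and without CPB+Nitrite 3 they were 4 higher and 2 lower (Tlr3 at -1.27 and Mavs at -0.99 on the log2 scale). Without CPB+Nitrite 2, Ifih1 stood at 1.88 (edgeR adjusted p = 0.0205) and Dhx58 at 2.01 (adjusted p = 0.0233). Without CPB+Nitrite 3, Ifih1 stood at 1.90 (edgeR adjusted p = 0.00871) and Dhx58 at 2.05 (adjusted p = 0.00858).

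The 4 CPB+Nitrite libraries took different places relative to the other groups. CPB+Nitrite 1 lay inside the CPB range for 4 of the 8 genes (Tlr2, Myd88, Ifih1 and Mavs) and above both groups for Tlr4 and Cd14. CPB+Nitrite 2 lay inside the sham range for 3 (Myd88, Ifih1 and Dhx58), below both groups for Tlr2, Tlr3 and Mavs, and above both for Tlr4. CPB+Nitrite 3 lay inside the sham range for 4 (Tlr4, Ifih1, Dhx58 and Mavs), and between the groups for Tlr2, Cd14 and Myd88. CPB+Nitrite 4 lay between the groups for Myd88, Ifih1 and Dhx58, above both for Tlr4, and below both for Tlr3 and Mavs. Its Tlr2 level lay inside the CPB range, and its Cd14 level was level with the highest CPB library (26.7 CPM each).

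**Figure D4:**
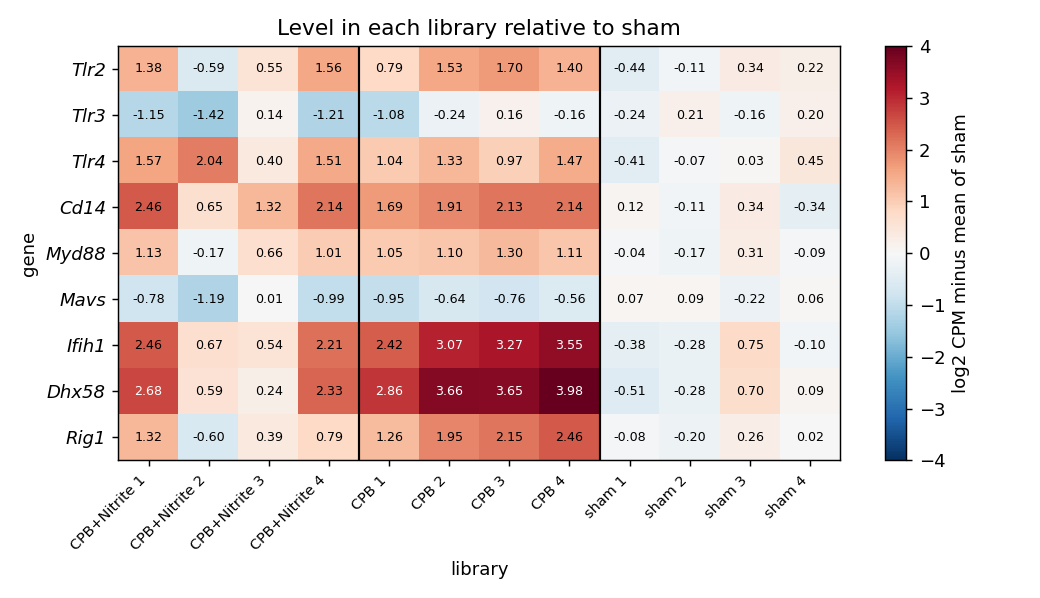
Colour scale of log2 CPM of each gene in each library relative to its sham mean, with CPB+Nitrite libraries first, then CPB, then sham. Ifih1 and Dhx58 were low in CPB+Nitrite 2 and 3 and high in every CPB library, while Tlr3 in CPB+Nitrite 3 (52.4 CPM) stood above the other CPB+Nitrite libraries.

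Likeness of pattern was measured as the root mean square difference of log2 CPM over the 12 libraries, each gene centred on its own mean, and is a description of these libraries. Among the 8 genes, Ifih1 and Dhx58 were closest (0.262), then Tlr2 and Myd88 (0.318) and Tlr3 and Mavs (0.354). Of 12160 genes with a mean of at least 2 CPM, those nearest to Dhx58 were Parp14 (0.163), Dtx3l (0.184) and Parp9 (0.198). Nearest to Ifih1 were Isg20 (0.197), Stat2 (0.211) and Casp12 (0.218), and nearest to Rig1 were Ascc3 (0.194), Ttll4 (0.196) and Trim25 (0.208). Myd88 was nearest to Slc39a1 (0.112), Cebpg (0.130) and Tlnrd1 (0.133). Genes near Mavs included Map3k4 (0.118) and Cnnm3 (0.129). Cd14 was nearest to Gadd45a (0.233), Tnfrsf1a (0.275) and Pim1 (0.296), and Tlr4 to Itprip (0.258), Rhoj (0.263) and Robo4 (0.268). Tlr2 was nearest to Tmcc3 (0.171), Zfp655 (0.183) and Sertad2 (0.217), and Tlr3 to Piga (0.209), Ap5s1 (0.243) and Nr2f2 (0.253).

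The other genes of these pathways were followed in lists, by counts and medians. In CPB versus sham, 43.2% of all genes were called, 21.7% higher and 21.5% lower, with a median log2 difference of -0.05, and the list counts stand beside these shares. Of 13 further Toll-like receptors and co-receptors tested, 5 rose (all genes, 21.7%) and 4 fell (all genes, 21.5%) in CPB versus sham, with a median log2 difference of 0.18. With a filter at a mean of 2 CPM the count was 5, of which 3 rose and 2 fell. Lbp, which carries lipopolysaccharide to Cd14, averaged 35.3 ± 28.6 CPM in CPB and 6.56 ± 0.575 CPM in sham (SD, n = 4 each), a log2 difference of 2.42 (edgeR adjusted p = 0.00670). Hsp90b1, a chaperone of Toll-like receptors, rose by 1.49 on the log2 scale and Unc93b1, which carries endosomal receptors, by 0.77. Tlr12, known in mice as a sensor of protozoan profilin, fell by 3.65 on the log2 scale and Cnpy3, another receptor chaperone, fell by 0.49. Ly96, the partner of Tlr4, rose by 1.19 on the log2 scale (edgeR adjusted p = 0.0158) and was named after its value was seen.

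Among 20 adaptors and kinases tested, 11 rose (all genes, 21.7%) and 2 fell (all genes, 21.5%), with a median log2 difference of 0.61. Ripk1, a kinase downstream of several receptors, rose by 1.46 on the log2 scale, Irak2, a kinase in the Myd88 complex, by 1.10, Tirap, which bridges Tlr2 and Tlr4 to Myd88, by 1.06, and Azi2, an adaptor of the kinase Tbk1, by 1.05. Tab1, a partner of the kinase Tak1, fell by 0.76 on the log2 scale. Ticam2, which bridges Tlr4 to Ticam1, averaged 0.768 CPM in CPB and 1.91 CPM in sham (edgeR adjusted p = 0.0160) and was named after its value was seen.

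Of 19 cofactors of RIG-I-like receptors and other RNA sensors tested, 15 rose (all genes, 21.7%) and 1 fell (all genes, 21.5%), with a median log2 difference of 0.86. Ddx60, a helicase described as a cofactor of RIG-I, had 52.7 ± 19.0 CPM in CPB and 3.25 ± 2.20 CPM in sham (SD, n = 4 each), a log2 difference of 4.01 (edgeR adjusted p = 0.00157). Oas1a and Oas2, synthetases that respond to double-stranded RNA, were 14.5-fold and 5.64-fold higher in CPB than in sham. Oas1a belongs to a family of near-identical copies among which reads may be split, so its value is uncertain. Zc3hav1, an antiviral RNA-binding protein, rose by 2.52 on the log2 scale, and Prkra, an activator of the kinase PKR, fell by 1.14.

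Of 17 cytosolic DNA sensors and inflammasome genes tested, 11 rose (all genes, 21.7%) and 1 fell (all genes, 21.5%), with a median log2 difference of 1.49. Nlrc5, a regulator of class I antigen presentation, rose by 4.08 on the log2 scale, Zbp1, a sensor of Z-form nucleic acid, by 3.65, Samhd1, a nucleotide hydrolase, by 3.48 and Nod1, a sensor of bacterial peptidoglycan, by 2.17. Nlrx1, a mitochondrial protein described as a restraint on Mavs, averaged 7.16 ± 0.866 CPM in CPB and 24.0 ± 4.28 CPM in sham (SD, n = 4 each), and fell by 1.75 on the log2 scale (edgeR adjusted p = 0.00107).

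Of 15 transcription factors downstream of the sensors tested, 13 rose (all genes, 21.7%) and none fell (all genes, 21.5%), with a median log2 difference of 2.05. Irf7, the factor that amplifies type I interferon, averaged 568 ± 170 CPM in CPB and 29.1 ± 16.2 CPM in sham (SD, n = 4 each), a log2 difference of 4.29 (edgeR adjusted p = 0.000968). Irf1 rose by 3.97 on the log2 scale and Stat2, a part of the interferon-stimulated factor complex, by 2.84. Atf3, a stress-induced repressor, rose by 3.27 on the log2 scale and had an adjusted p of 0.0536 without sham 4. Irf3, the factor activated directly by Mavs signalling, had a log2 difference of -0.013 (edgeR adjusted p = 0.958) and was named after its value was seen.

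Of 24 negative regulators tested, 17 rose (all genes, 21.7%) and 2 fell (all genes, 21.5%), with a median log2 difference of 1.08. Isg15, a ubiquitin-like modifier, rose by 5.15 on the log2 scale, Usp18, the enzyme that removes it, by 3.48, Socs3, an inhibitor of cytokine receptors, by 3.02 and Rnf125, a ubiquitin ligase that targets RIG-I, by 2.70. Rnf5, a ubiquitin ligase, fell by 0.54 on the log2 scale and Sigirr, an inhibitory member of the interleukin-1 receptor family, by 0.48. Both lost their calls without sham 1, sham 2, sham 3 or CPB 2 among others.

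**Figure D5:**
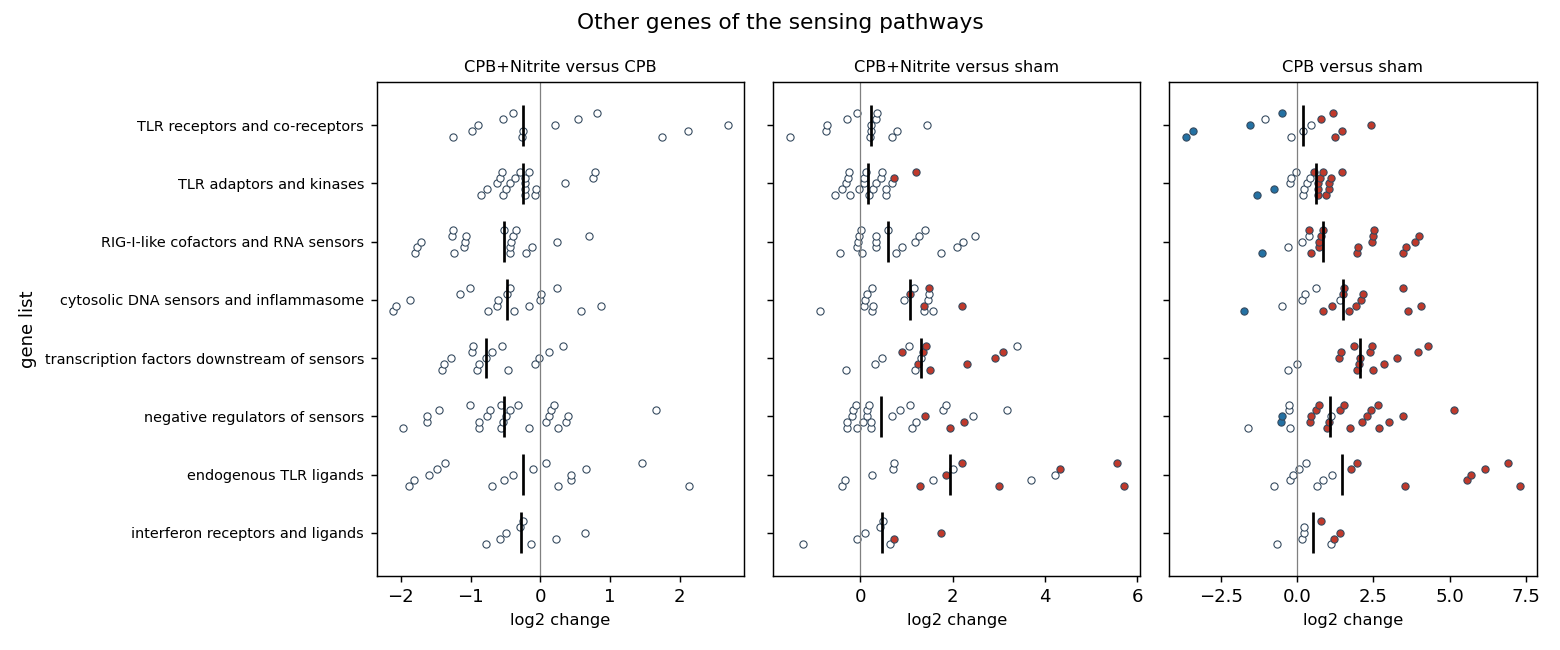
Log2 difference of each gene tested in the pathway lists, first-named group minus the second, for each comparison, with panels on their own scales. Red points were called higher, blue called lower, open points were not called, and black ticks are medians. Transcription factors had medians of -0.78 in CPB+Nitrite versus CPB, 1.31 in CPB+Nitrite versus sham and 2.05 in CPB versus sham.

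In CPB+Nitrite versus CPB, edgeR called none of these list genes, as it called 0% of all genes. DESeq2 called 2215 of the 15604 genes it tested (1335 higher, 880 lower). Among them were 4 receptors (3 higher, 1 lower), 3 adaptors and kinases, 8 RNA sensors and 6 DNA sensors and inflammasome genes (1 higher, 5 lower). It also called 5 transcription factors and 9 negative regulators, and the calls with no direction given were all lower. By edgeR these lists had 13, 20, 19, 17, 15 and 24 genes tested, in this order. The DESeq2 count of adaptors and kinases is near its share of all genes called in either direction, though all 3 were lower. Without CPB+Nitrite 1, edgeR called 2816 of 14664 genes (1710 higher, 1106 lower). Among them were 6 receptors (3 higher, 3 lower) and 6 adaptors and kinases (1 higher, 5 lower). It then also called 8 RNA sensors (1 higher, 7 lower), 8 DNA sensors and inflammasome genes (1 higher, 7 lower), 8 transcription factors and 8 negative regulators, with every call in the last pair of lists lower. The medians with all libraries were -0.25 for receptors, with 6 of 13 positive, -0.25 for adaptors and kinases, -0.52 for RNA sensors, -0.48 for DNA sensors and inflammasome genes, -0.78 for transcription factors and -0.51 for negative regulators, against 0.053 over all genes. Rnf125 averaged 5.89 ± 2.87 CPM in CPB+Nitrite and 18.2 ± 5.79 CPM in CPB (SD, n = 4 each), a log2 difference of -1.63 (edgeR adjusted p = 0.0556). Azi2 at -0.85 and Irf2, an interferon regulatory factor, at -0.97 had the same adjusted p of 0.0556.

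In CPB+Nitrite versus sham the counts of called genes, all higher, were 0 of 13 receptors, 2 of 20 adaptors and kinases, 0 of 19 RNA sensors, 4 of 17 DNA sensors and inflammasome genes, 8 of 15 transcription factors and 3 of 24 negative regulators, by edgeR. Of all genes, 4.81% were called, 3.85% higher. Each of these counts was 0 when only the 2 groups were fitted and without sham 1, sham 2, sham 4 or CPB+Nitrite 4. The genes named here lost their calls there and without CPB+Nitrite 1. Leaving out any single CPB library left 0 adaptors and kinases and 0 to 1 DNA sensors and inflammasome genes. It left 1 to 2 transcription factors and 0 to 1 negative regulators. The count of RNA sensors was 8 by DESeq2, 10 by limma voom (1 lower), 8 without CPB+Nitrite 2 (1 lower) and 7 without CPB+Nitrite 3. Sting1, the adaptor of cytosolic DNA sensing, averaged 7.31 ± 2.58 CPM in CPB+Nitrite and 2.82 ± 0.690 CPM in sham (SD, n = 4 each), a log2 difference of 1.37 (edgeR adjusted p = 0.0326). Casp1, the inflammasome protease, was 2.83-fold higher. Irf7 rose by 2.91 on the log2 scale, with the lowest CPB+Nitrite library inside the sham range, and Irf9 by 1.51. Tnfaip3, which restrains NF-kappaB signalling, rose by 2.26 on the log2 scale, and Zfp36, which destabilises cytokine messages, by 1.95. Over all genes, the count called in this comparison ran from 0 to 2980 as each library was left out.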

How the data were processed

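Libraries were prepared from total RNA of rat kidney with a directional NEBNext kit, per the labels' protocols. Groups and replicate numbers came from the labels. The submitters' processing notes name Salmon 1.2.1, cutadapt 1.18, bcl2fastq 2.19, R 3.5.1 and the build mRatBN7.2. The deposited counts were estimated counts that the authors gave for each Ensembl gene without normalisation, and 33.1% of non-zero values were not whole (tolerance 1e-06). How transcripts were summed to genes and whether strand was used in counting are not given in the sources used here. Another deposited file gave the authors' scaled signal, equal to the counts times 1 factor for each library. It supplied symbols and coordinates, and its factors were an alternative scaling chosen after seeing the data.

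Counts were rounded, and edgeR's filterByExpr (minimum count 10) left 14664 genes with 99.95% of reads. All 3 comparisons came from 1 edgeR 4.0.16 fit of the 12 libraries in R 4.3.3 (glmQLFit and glmQLFTest, TMM factors 0.887 to 1.11, no covariates, two-sided), with Benjamini-Hochberg adjustment at 0.05. Standard errors and 95% intervals came from the quasi-likelihood F statistic. Library totals were 16.8 to 25.8 M reads, and precision was limited by 4 libraries a group and 9 residual degrees of freedom. The script was tested on simulated data.

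The genes and lists were chosen with earlier results of these data known. All genes found by symbol were named. Per list, the rule named up to 4 called genes with the highest and 2 with the lowest log2 difference at a mean of at least 2 CPM for CPB versus sham, and up to 2 with the smallest p for each CPB+Nitrite comparison, of which a part is given. Of the 3 genes nearest in pattern to each gene, 1 is not reported here. Alternatives covered scaling (RLE factors or library totals only), filtering (none, or a mean of 2 CPM), a block for replicate number, other tools (DESeq2 1.42.0, and voom of limma 3.58.1 with sample weights), a fit of only the 2 groups compared, and leaving out each library.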

Additional observations from a re-analysis of the deposited data

Results flagged for a closer look

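Of 24 sets of 4 libraries (8 genes in 3 groups), 2 held a library that lay apart from the other 3 beyond the 95% limit of Dixon's gap-to-range ratio, and chance alone flags about 5% of such sets. Tlr3 had 52.4 CPM in CPB+Nitrite 3, against 17.7 to 21.4 CPM in the other CPB+Nitrite libraries. Mavs had 43.5 CPM in sham 3, against 52.8 to 53.8 CPM in the other sham libraries.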

How the results depend on the processing

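Over 21 alternatives, 451 of 504 recomputed log2 differences of the 8 genes kept their direction and their side of the threshold, among them 164 of 168 for CPB versus sham. For CPB versus sham, leaving out each library gave 6 to 7 of the 8 genes called and 4685 to 7543 of all genes. For CPB+Nitrite versus CPB, DESeq2 called 2 of the 8 and 2215 of the 15604 genes it tested, and limma voom called 1 of all genes. Leaving out each library gave 0 to 2 of the 8 and 0 to 2816 of all genes, with 2816 and 2 without CPB+Nitrite 1 and 4 genes without CPB 1. For CPB+Nitrite versus sham, where 2 of the 8 and 705 genes were called, DESeq2 called 5 and 2108, limma voom 8 and 2870, and a fit of only the 2 groups 0 and 0. Leaving out each library gave 0 to 6 of the 8 and 0 to 2980 of all genes, with 2980 without CPB+Nitrite 3. Tlr4 lost its call there in 12 of the 21 alternatives and Cd14 in 7.

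The replicate number as a block left 0 of the 8 and 28 genes called in CPB+Nitrite versus sham and changed no other call of the 8. There it also left 0 calls in the pathway lists except endogenous ligands, with 2. Over 12 same-numbered pairs the correlation of deviations ran from -0.11 to 0.38, above 0.1 in 3. In 4 of the 12 pairs the first library correlated best with its own number. These values cannot tell whether libraries with the same number were paired or shared a batch, and the labels do not say.

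The sign changed for genes not called in CPB+Nitrite versus CPB. Mavs was at -0.048 by limma voom, and ran from -0.26 (without CPB+Nitrite 3; -0.027 without CPB 1) to 0.20 as each library was left out. Cd14 ran from -0.48 to 0.071, positive only without CPB+Nitrite 2. Total counts alone moved the median log2 difference of all genes to 0.17 in CPB+Nitrite versus CPB, against 0.053. The cause of these changes was not tested. Depth limits Tlr4 most, with 26 to 155 reads a library.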

Other observations

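Of 16 genes for endogenous ligands of Toll-like receptors tested, edgeR called 7 higher in CPB+Nitrite versus sham (3.85% of all genes) and 8 in CPB versus sham (21.7% of all genes), with none lower in either, and these comparisons share the sham libraries. The 7 became 0 when only the 2 groups were fitted and without sham 1, sham 2, sham 4 or CPB+Nitrite 4, 3 without CPB+Nitrite 1 or any single CPB library, and 4 without sham 3. Fgg, Fgb and Fga, the fibrinogen chains, rose in CPB by 7.31, 6.93 and 6.15 on the log2 scale relative to sham. Fga averaged 3315 ± 1323 CPM in CPB and 46.8 ± 41.1 CPM in sham (SD, n = 4 each, edgeR adjusted p = 0.00303). Hspa1b, a heat shock protein, ran from 251 to 29459 CPM in CPB and from 148 to 313 CPM in sham, and it shares reads with a near-identical copy. In CPB+Nitrite kidneys Tnc, a matrix glycoprotein, averaged 33.5 ± 14.4 CPM and sham kidneys 4.17 ± 1.49 CPM (SD, n = 4 each), a log2 difference of 3.01 (edgeR adjusted p = 0.0145). S100a9, a calcium-binding protein abundant in neutrophils, averaged 8.62 ± 1.79 CPM in CPB+Nitrite and 2.36 ± 0.818 CPM in sham (SD, n = 4 each), a log2 difference of 1.86 (edgeR adjusted p = 0.0242). Tnc and S100a9 lost their calls in the 2-group fit (adjusted p = 0.102 and 0.109) and without sham 1, sham 2, sham 4 or CPB+Nitrite 4.

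Of 8 interferon receptor and ligand genes tested, 3 rose in CPB versus sham by edgeR and none fell. Counted in either direction, the edgeR calls are near the 43.2% of all genes called in that comparison. The like share for genes called higher is 21.7% of all genes. DESeq2 called 5 of the list, all higher, beside 7035 of 17187 genes (3650 higher). Limma voom also called 5, all higher, beside 8997 of 14664 genes in either direction, of which 4348 were higher. Only the share in either direction is near its count in the list. Ifnar2, a chain of the type I interferon receptor, rose by 1.42 on the log2 scale, Ifngr2, a chain of the type II receptor, by 1.21 and Jak1, the kinase they share, by 0.79. Ifnb1 averaged 0.0142 CPM in CPB and 0 CPM in sham and was not tested. In CPB+Nitrite versus sham, Ifngr2 rose by 0.72 on the log2 scale (edgeR adjusted p = 0.0391) and Ifnlr1, a chain of the interferon lambda receptor, by 1.75 (adjusted p = 0.0498). Both lost their calls in the 2-group fit and in every fit that left out a single library, apart from those without sham 3, CPB+Nitrite 2 or CPB+Nitrite 3. Ifnlr1 also lost its call with total counts alone (adjusted p = 0.0521), and its log2 difference was 1.07 without CPB+Nitrite 4.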
